A study of Mus musculus with 4 samples.

Results

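Contacts between alternative promoters are the listed chromatin interactions that join 2 transcription start regions of the same gene. They were taken from an H3K4me3 HiChIP experiment, in which chromatin ligated in place is immunoprecipitated for a histone mark of active promoters and sequenced, so that pairs of genome segments that touch are counted. The samples were bone marrow-derived macrophages (BMDMs) of C57BL/6J mice, grown for 7 days with M-CSF: 2 samples received interleukin-4 (IL-4, 20 ng/mL for 24 hours) and 2 basal samples received none, and both groups came from the same inbred strain with no engineered allele. All 4 samples enter 1 merged list of bin pairs of 5000 bp that the authors called significant, so IL-4 and basal samples cannot be told apart here, the depth of each sample is unknown, and no value below has replicates. A member was any listed pair whose bins each hold a transcription start site (TSS) of the same protein-coding gene, counting protein-coding transcripts of the basic GENCODE M21 set. This rule found 293 of 237102 listed interactions (0.124%), which belonged to 250 genes on 19 autosomes and made up 2.69% of the 10893 listed interactions with a TSS in both bins. A listed pair carries the observed count, the count expected from distance and other technical features, and their ratio, and every listed pair had a ratio of at least 2 and a false discovery rate under 0.01.

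Many mammalian genes start transcription at more than 1 promoter. Alternative promoters change the first exon and the 5′ untranslated region, and where the first coding exon differs they also change the start of the protein. Many promoters of broadly used genes lie in CpG islands, stretches rich in CpG dinucleotides that tend to be free of DNA methylation and to carry H3K4me3, whereas tissue-restricted alternative promoters are often CpG-poor. Runx1, a transcription factor of blood cell development, is a known case: its distal promoter is CpG-poor and its proximal promoter lies in a CpG island.

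The contrast in sequence within a pair is shown for 3 genes, chosen after their values were seen. Of the 2 promoters printed for each gene, the one with more CpG also had more contacts outside the gene's own promoters. Each line is the strand read by the gene, 5′ to 3′, in the 150 bases before the first TSS in the bin, with CpG dinucleotides in capitals. In Runx1 and Txnrd1 the downstream promoter is the one with more CpG, and in Rxra the upstream promoter is. The sequences are from the GRCm38.p6 assembly (mm10), at chr16:92826150-92826299 and chr16:92697329-92697478 (minus strand) for Runx1, chr10:82833801-82833950 and chr10:82860151-82860300 (plus strand) for Txnrd1, and chr2:27677051-27677200 and chr2:27709142-27709291 (plus strand) for Rxra, and no annotated exon overlaps them.
Runx1 upstream: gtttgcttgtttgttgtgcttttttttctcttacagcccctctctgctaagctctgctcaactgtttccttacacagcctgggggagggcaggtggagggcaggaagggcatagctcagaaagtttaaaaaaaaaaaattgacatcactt
Runx1 downstream: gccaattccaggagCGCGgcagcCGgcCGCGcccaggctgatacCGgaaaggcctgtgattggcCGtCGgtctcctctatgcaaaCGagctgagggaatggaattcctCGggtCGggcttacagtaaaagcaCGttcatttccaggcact
Txnrd1 upstream: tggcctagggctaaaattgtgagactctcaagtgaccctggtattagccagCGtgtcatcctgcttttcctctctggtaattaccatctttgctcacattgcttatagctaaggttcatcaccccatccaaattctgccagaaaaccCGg
Txnrd1 downstream: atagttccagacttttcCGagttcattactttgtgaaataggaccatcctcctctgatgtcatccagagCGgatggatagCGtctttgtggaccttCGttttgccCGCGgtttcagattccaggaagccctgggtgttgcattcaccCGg
Rxra upstream: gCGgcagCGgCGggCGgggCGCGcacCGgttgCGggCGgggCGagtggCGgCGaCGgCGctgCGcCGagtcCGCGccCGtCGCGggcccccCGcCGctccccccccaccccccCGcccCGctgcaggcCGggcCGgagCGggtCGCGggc
Rxra downstream: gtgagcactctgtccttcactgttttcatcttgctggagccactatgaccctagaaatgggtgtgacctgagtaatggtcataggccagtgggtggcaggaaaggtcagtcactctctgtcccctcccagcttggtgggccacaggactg
The printed stretches hold 0 CpG upstream and 12 downstream in Runx1, 2 upstream and 7 downstream in Txnrd1, and 30 upstream and 0 downstream in Rxra. The Rxra upstream promoter had 21 other contacts and the downstream promoter printed here 1. A second downstream promoter of Rxra, not printed, holds 4 CpG in the same stretch and had 0 other contacts. A second downstream promoter of Txnrd1, not printed, holds 11 CpG in the same stretch, yet had fewer other contacts than the printed downstream one. In both genes the 2 downstream promoters are nearby TSS that a bin edge separates into neighbouring bins. The first TSS of these bins are at chr2:27709292 and chr2:27710583 in Rxra, and at chr10:82859179 and chr10:82860301 in Txnrd1. The contact numbers of Runx1 and Txnrd1 are given further on.

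The contacts were mostly short. Their median distance between bins was 30 kb (quartiles 15 and 70 kb), against 215 kb for the 10600 listed contacts between promoters of different genes. Of the 293 contacts, 109 spanned at most 20 kb, 255 at most 100 kb and 12 more than 200 kb. The median observed count was 145 (quartiles 78 and 266), against 40 for different-gene promoter contacts, and the median ratio was 2.52 (quartiles 2.24 and 3.18), against 2.74. Within distance classes the median counts lay closer together: 266 against 299 at 10 to 20 kb, 142 against 162 at 25 to 50 kb, 83 against 94 at 55 to 100 kb, 55.5 against 52 from there to 200 kb, and 22.5 against 24 beyond. Many contacts lay close to the lower limit of the list: 35 had a ratio under 2.1, 86 reached 3 and 9 reached 5. The deposited false discovery rate was under 1e-06 for 258 of them and at most 0.00661.

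**Figure D1:**
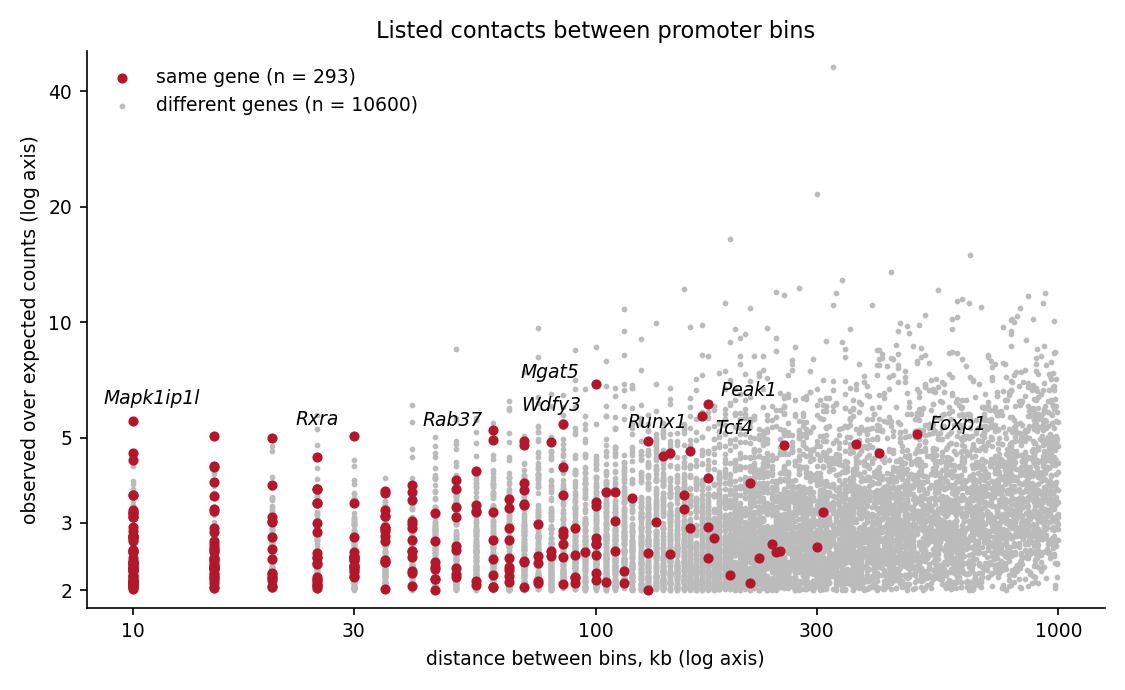
Ratio of observed to expected counts (log axis) against the distance between bins in kb (log axis) for the 293 contacts between promoters of the same gene (red) and the 10600 between promoters of different genes (grey), 1 point per listed pair. The same-gene contacts sit at a median of 30 kb and reach 6.88 (Mgat5), and the longest is a Foxp1 contact at 495 kb.

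Most genes had a single contact. Of the 250 genes, 222 had 1, 24 had 2, Tnfaip8 and Inpp4a had 3, Foxp1 had 5 and Tcf4 had 12. Tcf4, an E-protein transcription factor, has 8 promoter bins within 270 kb, and 12 of its 26 candidate pairs were listed. Its contacts spanned 70 to 250 kb, with counts between 16 and 96 and ratios between 2.43 and 5.70. The Tcf4 bin 5 kb after the first carried 91 contacts outside the gene's own promoters, the most of its 8 bins, and none of the 8 TSS windows was CpG-rich by the limits given below. The last Tcf4 bin had no listed contact.

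Foxp1, a forkhead repressor needed in B lymphocyte development, had 5 of 10 candidate pairs listed, among them the longest contacts found. The first promoter reached the last one over 495 kb with 118 counts against 23.1 expected (ratio 5.12). The promoter 85 kb after the first reached the last one over 410 kb with 18 counts against 3.95 expected (ratio 4.56), and the promoter at 255 kb reached it with 21 counts against 7.94 expected (ratio 2.65). The first promoter also met the promoter at 255 kb (58 counts, ratio 4.79) and the one at 85 kb (83 counts, ratio 2.78). The Foxp1 promoter at 360 kb was in no listed interaction. The last promoter, the only CpG-rich one of the gene, had 43 other contacts, against 6 to 12 at the other 3 promoters with contacts.

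Inpp4a, which encodes a phosphoinositide 4-phosphatase, had 3 of 5 candidate pairs listed, with 102, 65 and 43 counts at 55, 65 and 60 kb (ratios 3.33, 2.10 and 2.04). Tnfaip8, a gene induced by tumour necrosis factor, had 3 of 9, all from its most upstream listed promoter, with 242, 93 and 151 counts at 55, 70 and 75 kb (ratios 4.10, 3.80 and 2.45). The 6 genes that followed had 2 contacts each. Plec, a linker of intermediate filaments, had 522 and 342 counts (ratios 2.91 and 2.30), and Kyat1, a kynurenine aminotransferase, had 351 and 203 (3.83 and 2.26). Tbc1d14, a regulator of autophagy, had 331 and 300 counts (ratios 3.10 and 2.37), and Wipf1, a partner of the Wiskott-Aldrich protein, had 320 and 110 (2.71 and 2.97). Slc25a25, a mitochondrial carrier, had 319 and 308 counts (ratios 2.76 and 3.77), and Zmynd8, a reader of modified histones, had 297 and 234 (3.37 and 2.63). In each of these 6 genes the 2 contacts had a promoter bin in common, so they are not independent of each other.

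**Figure D2:**
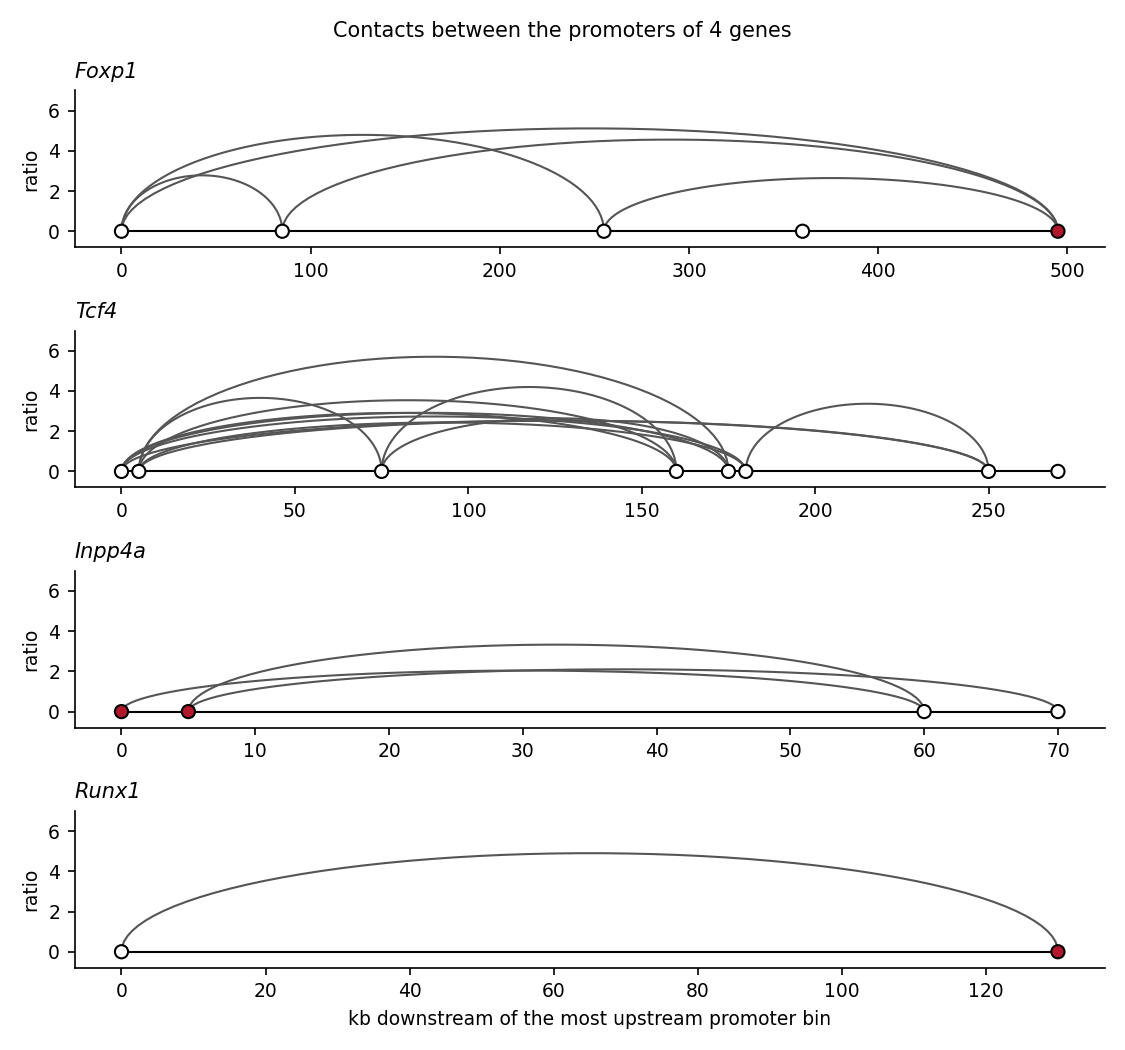
Promoter bins (circles, filled where the first TSS window is CpG-rich) along Foxp1, Tcf4, Inpp4a and Runx1 in kb downstream of the most upstream promoter bin, with an arc for each listed contact whose height is the ratio of observed to expected counts. Foxp1 has 5 arcs over 495 kb, Tcf4 12, Inpp4a 3 and Runx1 1 arc of 130 kb.

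The highest ratio was in Mgat5, which encodes a glycosyltransferase that branches N-glycans: its promoters at chr1:127205001-127210000 and chr1:127305001-127310000 had 165 counts against 24.0 expected (ratio 6.88) over 100 kb. Peak1, a pseudokinase of the cytoskeleton, followed with 78 counts and a ratio of 6.11 over 175 kb, but its upstream bin also holds a TSS of another gene. The other pairs of the highest 10 were in Tcf4 (57 counts, 5.70), Mapk1ip1l (791 counts, 5.52), Wdfy3 (145 counts, 5.43), Rab37 (126 counts, 5.24), Foxp1, Rxra (152 counts, 5.06), Arhgap5 (733 counts, 5.05) and Agap3 (538 counts, 4.98). Among these, Wdfy3 encodes an adaptor of selective autophagy, Rab37 a small GTPase of secretory vesicles, and Arhgap5 and Agap3 encode GTPase-activating proteins. Rxra, the retinoid X receptor that pairs with PPARγ and the liver X receptors, had a further contact with 109 counts and a ratio of 2.86. The Rxra contacts share the upstream bin, and their downstream bins are neighbours.

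The largest counts were found at short distances, where more counts are expected. Klhdc8b had 998 counts (348.8 expected, ratio 2.86), Lmna, the gene of lamin A and C, 970 (ratio 3.54), Arhgef2, a guanine nucleotide exchange factor bound to microtubules, 835 (ratio 4.23), and C77080 809 (ratio 2.76), at 10 to 15 kb. Fars2, a mitochondrial tRNA synthetase gene, had 574 counts, Bcl9l, a cofactor of β-catenin, 573, and Mad2l2, a subunit of a DNA polymerase complex, 568, also at 10 to 15 kb. After the 2 longest Foxp1 contacts, the longest were in Maml2, a Notch coactivator gene (365 kb, 20 counts, ratio 4.80), Focad (310 kb, 23 counts, ratio 3.21) and Mbd5 (300 kb, 16 counts, ratio 2.59). These long contacts rest on few counts, and nothing in the list gives their spread between samples.

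How often pairs of alternative promoters were listed was measured against all annotated pairs of promoter bins in the distance range of the list. These candidates were not checked for an H3K4me3 peak, which the list requires in at least 1 bin. Some of them may therefore have had no way to be listed, and the shares do not measure how often promoters touch. On the autosomes 2150 genes had at least 1 pair of promoter bins 10 to 1000 kb apart, giving 3518 candidate pairs, of which 8.33% were listed (95% Wilson interval 7.46 to 9.29%, counting error only). Of candidate pairs between promoters of different genes, 2.23% of 474960 were listed, and 5.01% after weighting to the distances of the same-gene pairs. The difference at equal distance was 3.32 percentage points, with an SD of 2.38 points over the 19 chromosomes, and it was positive on 18 of them and negative on chromosome 1. Same-gene pairs were listed more often in each distance class: 8.12% against 5.86% at 10 to 20 kb, 9.52% against 4.31% at 25 to 50 kb, 10.9% against 4.76% at 55 to 100 kb, 6.90% against 4.50% from there to 200 kb, and 3.44% against 1.52% beyond, with Wilson intervals that did not overlap in any class. The difference was 0.389 points when TSS within 2500 bp of a bin were also counted, 0.896 points with 1 pair kept per cluster of neighbouring interactions, and 2.04 points (SD 2.82) with transcripts of support level 1 only, each under its SD over chromosomes.

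**Figure D3:**
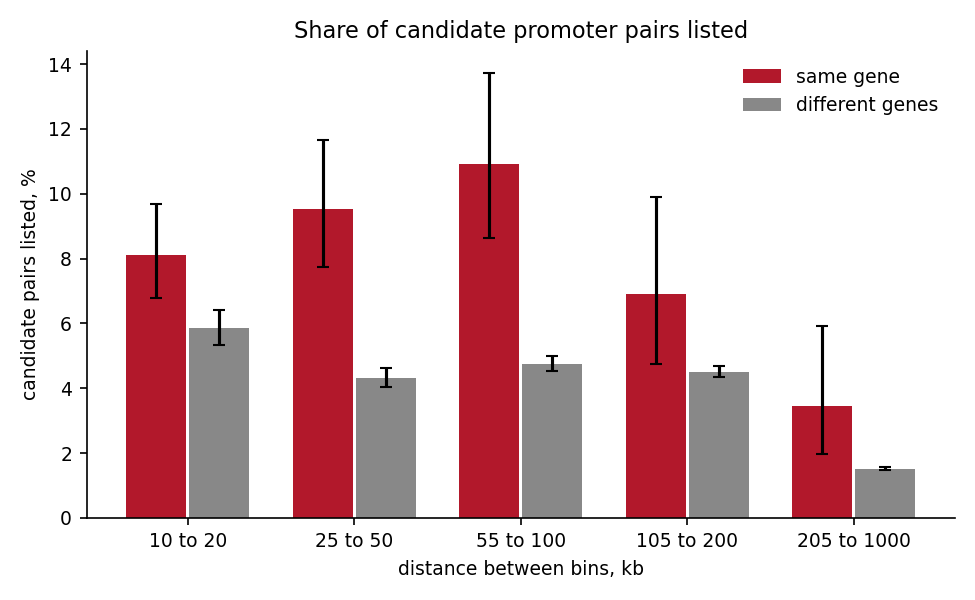
Share of candidate promoter pairs that were listed, in percent, for pairs of the same gene (red) and of different genes (grey) in 5 classes of distance between bins in kb, with 95% Wilson intervals (counting error only). Same-gene pairs are higher in each class, with the widest gap at 55 to 100 kb (10.9% and 4.76%).

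Among listed contacts the ratio of observed to expected counts differed little. All of them had passed the same limit, a ratio of at least 2, which narrows the range in which the means can differ. The comparison therefore says little about the strength of contact over all candidate pairs. At equal distance the mean log2 ratio was 1.44 for same-gene pairs and 1.36 for different-gene pairs, a difference of 0.08 with an SD of 0.13 over chromosomes, positive on 15 of 19. With the comprehensive transcript set the difference was again 0.08, with an SD of 0.05 and positive on 18 chromosomes, so that it exceeded the spread there. Against listed contacts between a promoter bin and a bin of the same gene body that holds no TSS, the difference in log2 ratio was -0.03 (SD 0.14), positive on 9 chromosomes. Same-gene pairs were nevertheless listed more often than such gene-body pairs at the same distance, 8.33% against 4.02%, on all 19 chromosomes. Where both bins had some other listed contact, the shares were 18.0% for same-gene pairs, 10.0% for different-gene pairs and 10.8% for gene-body pairs, and same-gene pairs were higher than different-gene pairs on 17 chromosomes and higher than gene-body pairs on 18.

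Which end of the pair the contact follows was examined bin by bin, in the 1622 candidate pairs far enough apart (at least 40 kb) that the bins within 30 kb of each promoter could be compared. Seen from the upstream promoter, the downstream promoter bin was listed in 8.08% of pairs (6.85 to 9.50%) and the 12 bins around it in 5.55 to 7.40%, and the intervals of 11 of these 12 overlapped that of the promoter bin. Seen from the downstream promoter, the upstream promoter bin was listed in the same 8.08%, but the 12 bins around it in only 1.48 to 4.01%, and none of their intervals overlapped. The list thus had a peak of contacts of the downstream promoter at the upstream one, whereas contacts of the upstream promoter ran across the region around the downstream one with little increase at it. The list admits a pair when at least 1 of its bins carries an H3K4me3 peak. The peaks themselves were not analysed here, and their part in this pattern was not tested.

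**Figure D4:**
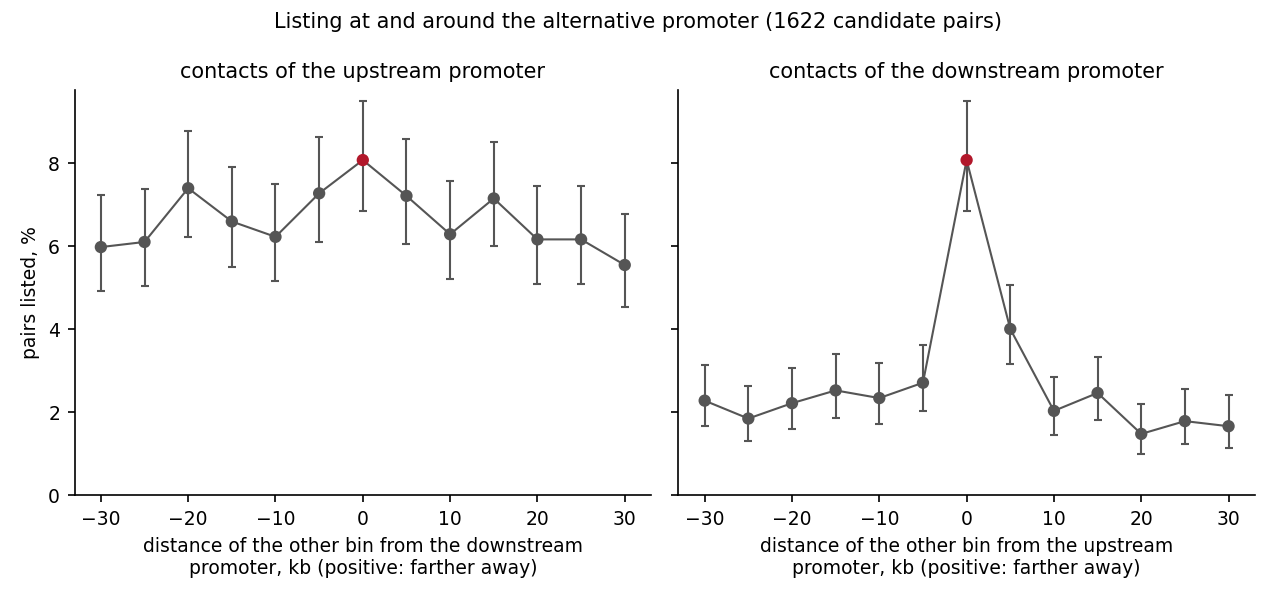
Share of 1622 candidate pairs listed, in percent with 95% Wilson intervals, between the upstream promoter and bins within 30 kb of the downstream promoter (left), and between the downstream promoter and bins within 30 kb of the upstream promoter (right), and the red point is the promoter pair itself. The pair stands at 8.08% in each panel, above neighbours at 5.55 to 7.40% on the left and at 1.48 to 4.01% on the right.

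In listed pairs the upstream promoter carried most of the other contacts. Other contacts are all listed interactions of a bin except those with another promoter bin of the same gene. The upstream bin had more of them in 233 of 293 pairs (79.5%, 74.5 to 83.7%), the downstream bin in 57, and they were equal in 3, with the upstream bin ahead on all 19 chromosomes. Pairs of 1 gene can share a bin and are then not independent. Counted by gene, the upstream side had more in 200 genes and the downstream side in 47, with 3 equal. Without pairs in which a bin also held a TSS of another gene, the upstream share was 77.2% of 237 pairs. Over the 293 pairs, the medians were 20 other contacts at upstream promoters and 2 at downstream promoters, and 13 upstream and 61 downstream promoters had none. Both promoters reached at least 10 other contacts in only 21 pairs. Among the 2010 candidate pairs that were not listed but had a contact at either bin, the upstream bin had more in 57.4% (55.2 to 59.6%). A bin without an H3K4me3 peak can be listed only with a bin that has one. How far this bears on these counts, and on the split by CpG content below, was not tested.

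The side with the contacts went with CpG content. A TSS window, taken from 250 bases before to 50 after the first TSS in the bin, was called CpG-rich at an observed to expected CpG ratio of at least 0.6 and a GC content of at least 50%. Only the upstream window was CpG-rich in 180 listed pairs (61.4%), only the downstream window in 26, both in 14 and neither in 73, against 34.2%, 7.10%, 4.28% and 54.4% of the 3225 unlisted candidate pairs. Where only the upstream promoter was CpG-rich, it had more other contacts in 165 pairs and the downstream one in 14. Where only the downstream promoter was, the upstream one had more in 6 pairs and the downstream one in 20. In 185 of the 206 pairs with 1 CpG-rich promoter that promoter had more other contacts (89.8%, 84.9 to 93.2%), against 72.5% (69.6 to 75.2%) of 964 unlisted pairs with any other contact. The upstream promoter had more in 171 of the same 206 (83.0%). Where neither was CpG-rich, the upstream promoter still had more in 54 pairs and the downstream one in 18.

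**Figure D5:**
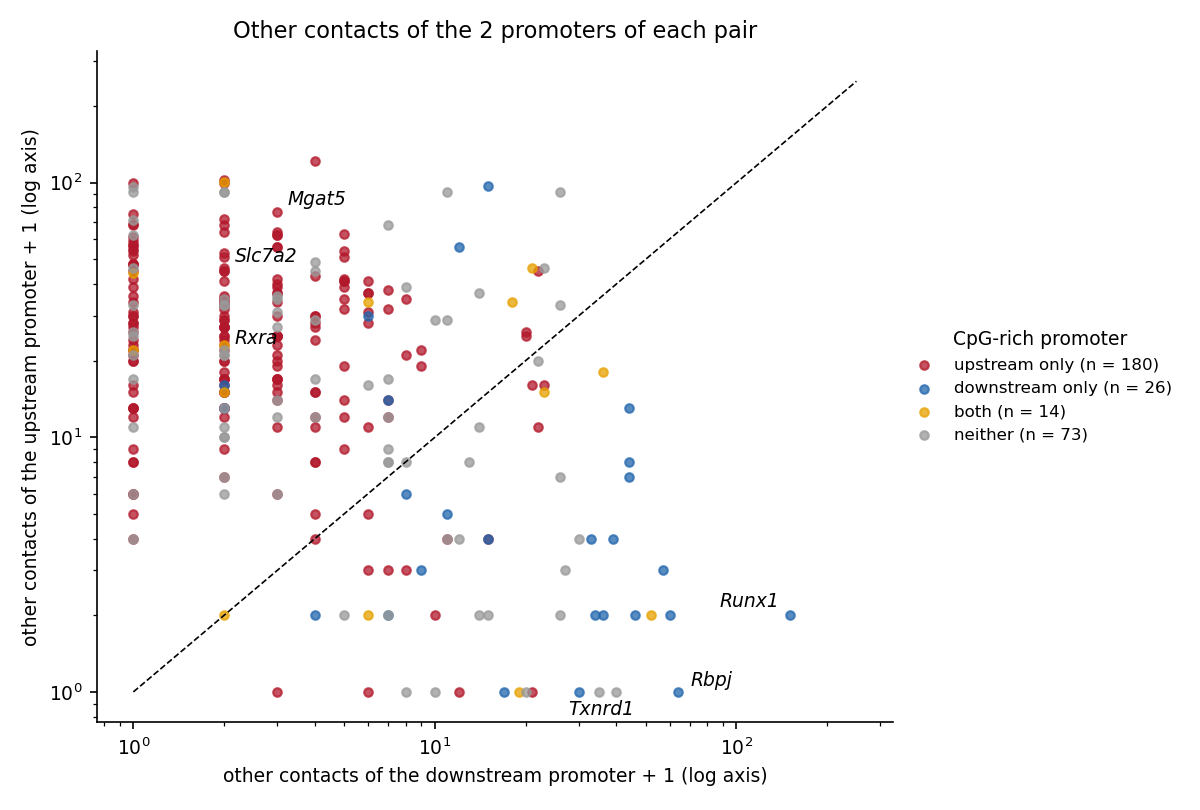
Number of other contacts plus 1 of the upstream promoter (vertical, log axis) against that of the downstream promoter (horizontal, log axis) for the 293 pairs, coloured by which promoter is CpG-rich, with a dashed line of equality. Pairs with a CpG-rich upstream promoter (red) lie mostly above the line (165 of 180) and pairs with a CpG-rich downstream promoter (blue) mostly below it (20 of 26).

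Candidate pairs with neither promoter CpG-rich were listed least often. Pairs with a CpG-rich upstream promoter only were listed in 14.0% of 1282 cases (12.2 to 16.0%), those with a CpG-rich downstream promoter only in 10.2% of 255 (7.05 to 14.5%), those with both in 9.21% of 152 (5.57 to 14.9%), and those with neither in 3.99% of 1829 (3.19 to 4.99%). The intervals of the first 3 classes overlapped each other. The bin-by-bin view turned round between pairs with only the upstream and pairs with only the downstream promoter CpG-rich. Where only the upstream promoter was CpG-rich, that promoter was listed with 9.81% of the bins 10 to 30 kb around the downstream promoter, the downstream promoter with 1.44% of the bins around the upstream one, and the pair itself in 11.6% (9.36 to 14.3%). Where only the downstream promoter was CpG-rich, the upstream promoter was listed with 2.99% of the bins around the downstream one. The downstream promoter was then listed with 7.20% of the bins around the upstream one, and the pair in 9.35% (5.16 to 16.4%). In the 789 pairs with neither promoter CpG-rich, the upstream side was still ahead, at 3.76% against 1.27%, and the pair stood at 4.44%. In the 80 pairs with both CpG-rich, the shares were 8.6% and 8.1%, and the pair stood at 13.8%.

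Runx1 was the clearest case with the contacts on the downstream side. Its distal promoter (chr16:92825001-92830000) and proximal promoter (chr16:92695001-92700000) were joined over 130 kb with 210 counts against 42.8 expected (ratio 4.90). The distal promoter had 1 other contact and the proximal promoter 150, the largest number at any downstream promoter, and their CpG ratios were 0.19 and 1.01. The proximal promoter's other contacts reached an intergenic bin 600 kb away with 70 counts (ratio 11.8). Further pairs of this kind, chosen after their values were seen, were Rbpj, the DNA-binding partner of Notch (0 other contacts upstream and 63 downstream), Pomgnt1 (1 and 59), Tmem219 (2 and 56), Pde4dip (1 and 51), Lmo2, a regulator of blood stem cells (1 and 45), and Txnrd1, cytosolic thioredoxin reductase (0 and 34). The Txnrd1 downstream window had a CpG ratio of 0.69 but a GC content of 46.7%, so it was not called CpG-rich. The gene's other downstream promoter bin, which is the neighbouring bin and was CpG-rich, had 16 other contacts. In Hk1, hexokinase 1, the upstream promoter had 0 other contacts and the downstream one 39, and neither was CpG-rich (CpG ratios 0.05 and 0.06). Slc7a2, whose product takes up arginine, had the more usual arrangement: 45 other contacts at its upstream CpG-rich promoter and 1 at a promoter 10 kb downstream, joined by 266 counts (ratio 2.14). Its 2 strongest other contacts by ratio, 15.7 and 12.6, went to bins in the body of Mtmr7.

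Short motifs were compared between upstream and downstream windows. Among those searched, only GGGCGG and TATAAA had upstream and downstream intervals that did not overlap. The letters GGGCGG include a CpG, and 68.3% of the upstream and 13.3% of the downstream windows were CpG-rich, so the 2 contrasts are not separate. The letters GGGCGG (Sp and KLF factors, searched on both strands) were in 67.2% of 262 upstream windows and 18.7% of 278 downstream windows of listed pairs, against 41.1% of all 25326 promoter windows. The letters TATAAA, which the TATA box has, were in 6.11% of upstream and 15.1% of downstream windows, against 13.5% of all, with intervals for the upstream and downstream windows that did not overlap. The letters TGACTCA (AP-1) were in 2.67% of upstream windows (1.30 to 5.41%) and 7.19% of downstream windows (4.71 to 10.9%), against 4.66% of all, with intervals that overlapped. The letters TGACGTCA (the cyclic AMP response element) were in 3.82% and 2.16%, against 2.23%, again with overlapping intervals. The letters GAGGAAGT (PU.1, the lineage factor of macrophages) were in 4.58% and 2.88%, against 3.11%, with intervals that overlapped. A match describes the letters in these windows and not binding.

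Partner bins that both promoters of a listed pair contacted were counted next. Shared partners, as a share of all partner bins of the pair, had a median of 0% and an upper quartile of 6.06%, and 151 of 293 pairs shared none, but a promoter with no other listed contact can share none. In the 224 pairs whose bins both had another listed contact the median was 2.90% (quartiles 0 and 7.69%), against 3.57% for 9304 such listed pairs of different genes. By distance class the medians over these pairs were 3.36% at 10 to 20 kb, 3.26% at 25 to 50 kb, 1.30% at 55 to 100 kb and 1.31% from there to 200 kb, against 4.76%, 6.00%, 5.00% and 4.00% for the different-gene pairs. The 9 pairs over 200 kb had a median of 12.7%, against 2.63%. The quartile ranges overlapped in all 5 classes, and no test of these differences was made. The largest number of shared partners, 19 of 46, was at Gcnt1.

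The annotated start codon differed between the promoters in 147 of 288 listed pairs with known start codons (51.0%, 45.3 to 56.8%), against 55.7% (53.9 to 57.4%) of 3106 unlisted pairs. Different start codons were annotated for Runx1, Rxra, Lmna, Lmo2 and Arhgef2, and the same start codon for Mgat5, Slc7a2, Mapk1ip1l and Wdfy3. Transcripts of support level 1 started in both bins of 134 listed pairs (45.7%), against 42.2% of unlisted pairs. In 56 listed pairs a bin also held a TSS of another protein-coding gene, in 53 the upstream one, and the contact cannot then be given to 1 gene. Among them were Klhdc8b (with Ccdc71), Fars2 (with Lyrm4), Mad2l2 (with Draxin), Mbd5 (with Orc4) and Dusp1, a MAP kinase phosphatase whose annotated upstream promoter lies in the bin of Ergic1.

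Across genes, 250 of the 2150 with a candidate pair had a listed one (11.6%). The share grew with the number of promoter bins, 9.86% with 2, 15.5% with 3, 18.6% with 4 and 25.6% with 5 or more, which gives more candidate pairs per gene. Genes with a listed pair had a median of 28 listed interactions at their promoters and the others 2, and 684 genes had none. The listed pair is itself among the interactions counted, so all genes with none fall in the group without a listed pair. The direction of this contrast was thus partly fixed in advance. The median gene length was 71.3 kb with a listed pair and 67.8 kb without. Of 15 macrophage markers, 14 had a listed interaction at a promoter (median 11). The counts were 3 of 12 T cell (median 0), 6 of 10 B cell (1), 7 of 10 neutrophil (2) and 4 of 10 stromal markers (0). Over all candidate genes the share was 68.2% and the median 3. The B cell and neutrophil shares lie near that share, and the sets are small. Candidate genes were chosen for having a pair of promoter bins and the markers were not, so the sets are not alike. The same share over all protein-coding genes was not computed. Such counts alone do not establish the identity of the cells.

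Gene groups are given as counts beside the 11.6% of all candidate genes. Of 33 signalling kinases and phosphatases with a candidate pair 11 had a listed one (33.3%, 19.8 to 50.4%): Inpp4a, Ptprj, Ptpre, Dusp1, Lck, Prkcd, Met, Abl1, Limk2, Prkag2 and Src. Ptprj, a receptor tyrosine phosphatase, had 59 and 35 counts (ratios 3.62 and 2.11), and Ptpre, which has a receptor form and a cytosolic form, 51 and 34 (2.12 and 2.38). Among transcription factors of macrophages and blood cells the count was 6 of 22, namely Tcf4, Foxp1, Elf2, Runx1, Klf13 and Tcf12. Elf2, an Ets factor, had 267 and 102 counts (ratios 3.27 and 2.61). Chromatin regulators had 6 of 22: Nsd3, a histone H3 lysine 36 methyltransferase with 179 and 72 counts (ratios 2.90 and 2.91), Pcgf5 (188 counts, 4.93), a Polycomb subunit, Setd5 (169 counts, 2.45), Arid5b, Chd7 and Mbd5. Regulators of small GTPases and of the cytoskeleton had 8 of 45, among them Epb41, a membrane skeleton protein (127 and 77 counts, ratios 4.89 and 2.18), Sept9, a septin (104 and 75 counts, ratios 3.33 and 3.01), and Arhgef2.

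Of 9 IL-4 signalling genes with a candidate pair, 1 had a listed one (11.1%, near the 11.6% of all candidate genes), Rxra, which was also the only one of 23 nuclear receptors and corepressors (4.35%). Pparg, a nuclear receptor induced by IL-4, had 3 listed interactions at its promoters and none between them. Among 10 innate and inflammatory genes the 1 with a listed pair (10.0%) was Nfkb1, the gene of p105 and p50 (76 counts, ratio 2.06), and among 39 neuronal and ion channel genes (2.56%) it was Celf5 (209 counts, ratio 2.55). None of 17 developmental transcription factors had a listed pair, and 8 of them had any promoter contact. The median number of listed interactions at the promoters was 28 in the blood transcription factor group, 17 in the IL-4 group, 12 in the kinase group, 10 in the GTPase and cytoskeleton group, 8.5 in the chromatin group, 6 in the innate group, 2 in the nuclear receptor group and 0 in the neuronal and developmental groups, against 3 over all candidate genes.

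Of 28 genes chosen as established cases of alternative promoters, 6 had a listed pair (21.4%, 10.2 to 39.5%): Tcf4, Ptpre, Runx1, Lck (191 counts, ratio 2.54), Hk1 (156 counts, ratio 3.59) and Ank1 (19 counts, ratio 2.74). Of the other 22, Trp63, Bdnf and Nrxn3 had no listed interaction at any promoter. Runx2, Runx3, Mitf, Pparg, Cdkn2a, Gnas, Il1rn, Dnmt3a, Trp73, Pde4b, Pax6, Rara, Nrxn2 and Mbp had between 1 and 8, Esr1 14, Pde4d 15 and Rarg 19. Lck, a kinase of T cells, was listed among these macrophage contacts, with 6 other contacts upstream and 25 downstream. A low number of listed contacts limits what can be seen, and a pair that was not listed is not shown to be apart.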

How the data were processed

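H3K4me3 HiChIP was done on cross-linked C57BL/6J BMDMs with MboI digestion, in 2 IL-4 samples and 2 basal samples. Reads were mapped to mm10 with Bowtie2, MACS peaks were merged with bedtools as anchors, and MAPS, a caller of significant HiChIP interactions, called bin pairs on the merge of all samples; bedtools and mm10 are named in the submitters' processing notes, and their versions are not given in the sources used here. The deposited counts are read pairs per pair of 5000-bp bins, pooled over samples, and the authors did not normalize them. The deposited expected values are those of the authors' model, and the deposited false discovery rates (adjusted p-values) and cluster sizes are the authors' calls. The list holds pairs 10 to 1000 kb apart with a ratio of at least 2.

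TSS were taken from GENCODE M21 (GRCm38) and sequence from GRCm38.p6 with pysam 0.24.0 and samtools 1.23.1, and all else was computed in Python 3.11.15 (pandas 2.3.3, numpy 2.4.6). Candidate pairs, weighting to equal distance (steps of 5 kb), TSS windows and other contacts were defined as stated with the results. Intervals are 95% Wilson intervals over pairs, genes or windows and cover counting error only. Pairs can share bins, genes and clusters (61 of the 293 share a cluster with another), so they are not independent. The PCR reads behind the counts are not independent molecules either. SDs are over 19 chromosomes, which are not replicates. With all samples pooled no difference was tested, IL-4 was not compared with basal, and no p-value was computed. The weighting was tested on simulated data (20 lists for each of 3 planted differences). The X chromosome was not analysed here.

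The named genes were the 10 with the most contacts, the 10 pairs with the highest ratio, the 10 with the highest count, the 5 longest, the 3 genes of each of 10 gene lists with the most contacts, all genes of the list of established alternative promoters, and Slc7a2. Some genes that this rule names are not reported here. Txnrd1, Gcnt1 and other genes named outside it were chosen after their values were seen. The members and lists were chosen with earlier results of these data known. The alternatives were other limits on false discovery rate, count and ratio, 1 row per cluster, no single-pair clusters, other transcript sets, bins without another gene's TSS, a TSS flank of 2500 bp, pairs with another contact at both bins, and, chosen after seeing the data, leaving out Tcf4 and other limits for CpG-rich windows.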

Additional observations from a re-analysis of the deposited data

How the results depend on the processing

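The share listed stayed higher for same-gene than for different-gene promoter pairs at equal distance under all 11 alternatives, the log2 ratio difference stayed between 0.03 and 0.12 under its 10, and the median share of common partners was 0% or 1% under its 10, but 2.90% over the 224 pairs whose bins both had another contact. A ratio of at least 4 left 28 contacts in 25 genes (0.796% of candidates, a difference of 0.577 points, and 71.4% with more other contacts upstream). 1 row per cluster gave 74 contacts in 74 genes (2.10%, 0.896 points and 64.9%). All protein-coding transcripts of the comprehensive set gave 816 contacts in 630 genes (85.4% upstream), and support level 1 gave 134 in 124 genes (a difference of 2.04 points). TSS within 2500 bp of the bin gave 815 contacts in 488 genes (5.56%, 0.389 points and 72.5%). The share listed was 7.33% at a false discovery rate under 1e-06, 7.43% without bins that hold another gene's TSS, and 18.0% where both bins had another contact, with a difference of 7.96 points. These settings keep fewer or more pairs by construction, and the cause of the changed shares was not tested. Leaving out Tcf4 left 281 contacts and a difference of 3.03 points. With a CpG ratio of at least 0.4 the CpG-rich promoter had more other contacts in 91.4% of 210 pairs, and with 0.75 and a GC content of 55% in 90.3% of 155 pairs. No paired analysis was possible because the list pools all 4 samples and holds no value per sample, and for the same reason no replicate could be left out. The unknown depth limits all shares: a pair with few expected counts may go unlisted.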

Other observations

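Some contacts between alternative promoters ranked first among the listed interactions of their bins, by count more often than by ratio. In 68 of 293 pairs the contact had the highest count among all listed interactions of the 2 bins (median 28 interactions), and in 5 it had the highest ratio: Agap3 (ratio 4.98 among 10 interactions), Arhgef2 (4.23 among 13), Ash1l (4.19 among 36), Anks1 (3.39 among 11) and Lcp1 (3.21 among 8). These 5 were singled out after their values were seen. Counts are larger at short distances, and the median distance was 30 kb for these pairs as a group of 293, against 185 kb for all listed interactions. The same rank was not taken for other listed pairs. Ash1l encodes a histone methyltransferase, and Lcp1 encodes L-plastin, an actin-bundling protein of leukocytes.

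The 12 longest pairs, over 200 kb, had medians of 29.5 other contacts upstream and 14 downstream, and 9 of them shared at least 1 partner bin. The 109 pairs at 10 to 20 kb had medians of 23 and 2, and 61 of them shared a partner bin. With 12 pairs, several from Foxp1 and Tcf4, this is a description only.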
